A study of Mus musculus with 8 samples.

Results

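The MDGA and IgLON genes encode adhesion molecules of the immunoglobulin superfamily that are held on the neuronal surface by a glycosylphosphatidylinositol (GPI) anchor. The family was taken as 7 named genes, Mdga1, Mdga2, Lsamp, Negr1, Opcml, Ntm and Iglon5, each matched exactly to the symbol of a probe set of the array that carries a single gene symbol, and all 7 of 7 were found among the 19938 genes measured. Where a gene had several such probe sets, the brightest by its mean over the 8 arrays was read. Total RNA from neocortical layers II to IV, cut out by laser at postnatal day 2, was measured on 1 Affymetrix mouse gene array for each pup. The 4 control pups were Bcl11a flox/+;Emx1 IRESCre/+ and the 4 mutant pups Bcl11a flox/flox;Emx1 IRESCre/+. All pups thus carried the same Cre allele, and the controls carried a floxed copy of Bcl11a as well, so that each comparison sets recombination of both alleles against that of 1. Emx1 drives Cre in the lineage of cortical excitatory neurons and glia, and interneurons, microglia and vessels arise outside it.

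MDGA proteins bind neuroligins, the postsynaptic adhesion proteins, and block their contact with presynaptic neurexins, and Mdga1 is known as a gene of upper-layer cortical neurons that acts in their migration. IgLON proteins bind one another across and along membranes, as pairs of like or unlike members, and influence neurite outgrowth and synapse formation. The transcription factor Bcl11a binds DNA through zinc fingers and acts in the differentiation of projection neurons in the cortex.

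Values are log2 expression, and differences are mutant minus control with the standard error (SE) of limma's moderated linear model. P-values were adjusted by the Benjamini-Hochberg method across the 19938 genes, and a gene is said to have risen or fallen where this value is below 0.05. Bcl11a itself read 10.34 to 10.59 in the controls and 8.37 to 8.85 in the mutants, a log2 difference of -1.82 (SE 0.10, adjusted p = 4.9e-07). The position of its probe set relative to the floxed segment was not analysed here. Array medians lay between 4.83 and 4.91, and any 2 arrays correlated at 0.991 to 0.997 over the genes. Control 1 had the lowest array weight, 0.556, against 0.794 to 1.33 for the other arrays. Values at or below 4.31, the highest reading of 3 Y-linked genes in the 3 arrays that expressed Xist, may be background. All 7 members lay above this value in every array. The 3 arrays that expressed Xist were 2 controls and 1 mutant, and sex was inferred from Xist.

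Of the 7 members, 3 fell, 2 rose and 2 did not pass the test. Over all genes the test called 4.15%, with 2.36% higher and 1.79% lower. Both MDGA genes were lower in the mutant layers, Mdga1 by 2.09-fold and Mdga2 by 1.30-fold. Within the IgLON genes the directions differed: Ntm fell 1.53-fold, whereas Lsamp rose 1.37-fold and Iglon5 rose 1.20-fold. The groups did not overlap for these 5 genes, against 9.25% of all genes (5.46% with the mutants above and 3.79% with the mutants below the controls), and they overlapped for Negr1 and Opcml. The median log2 difference was -0.23 over the 7 members and 0.02 over all genes.

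**Figure D1:**
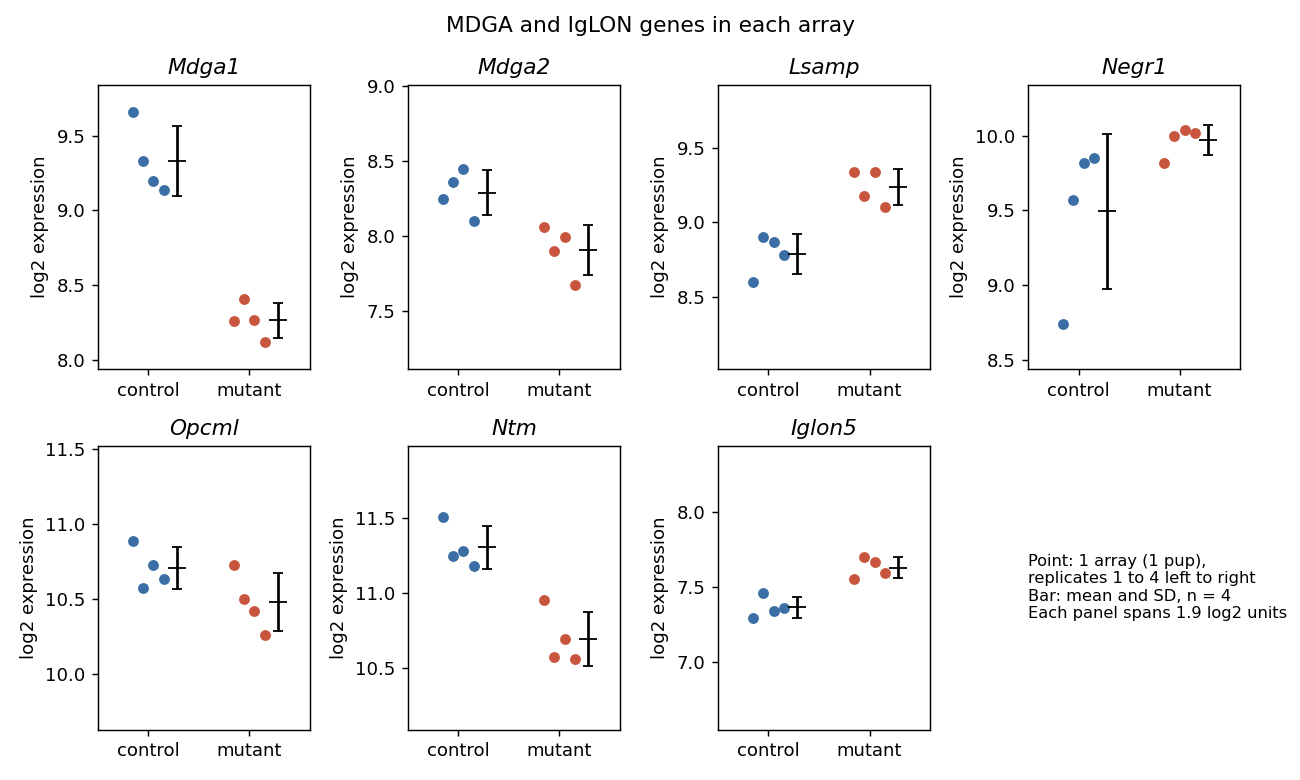
Log2 expression (vertical axis) of the 7 genes in the 4 control and 4 mutant arrays, with the mean and SD of each group. The mutants lie below all controls for Mdga1, Mdga2 and Ntm and above all controls for Lsamp and Iglon5, while Negr1 has a single low control at 8.74.

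The stretch of 250 bases that precedes a RefSeq transcription start is shown for the 5 genes that changed (RefSeq, GRCm38.p6, the gene's own strand, 5′ to 3′), since these genes moved in the same tissue and the letters TGACCA have been reported as a recognition motif of Bcl11a. Capitals mark each match to TGACCA on either strand. The windows are Mdga1 at chr17:29887883-29888132 (minus strand), Mdga2 at chr12:67222550-67222799 (minus), the second listed window of Ntm at chr9:29412686-29412935 (minus), the first listed window of Lsamp at chr16:39984114-39984363 (plus) and Iglon5 at chr7:43490212-43490461 (minus).
Mdga1: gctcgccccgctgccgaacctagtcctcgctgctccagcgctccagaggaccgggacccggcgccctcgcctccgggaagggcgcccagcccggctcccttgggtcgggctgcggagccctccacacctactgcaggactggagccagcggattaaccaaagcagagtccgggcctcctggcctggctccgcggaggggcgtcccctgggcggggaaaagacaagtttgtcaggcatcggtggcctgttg
Mdga2: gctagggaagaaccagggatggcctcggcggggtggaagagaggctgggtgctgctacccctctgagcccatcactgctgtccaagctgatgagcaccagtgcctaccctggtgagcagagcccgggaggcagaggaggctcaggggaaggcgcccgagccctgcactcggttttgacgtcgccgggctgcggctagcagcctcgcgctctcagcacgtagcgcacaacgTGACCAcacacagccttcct
Ntm: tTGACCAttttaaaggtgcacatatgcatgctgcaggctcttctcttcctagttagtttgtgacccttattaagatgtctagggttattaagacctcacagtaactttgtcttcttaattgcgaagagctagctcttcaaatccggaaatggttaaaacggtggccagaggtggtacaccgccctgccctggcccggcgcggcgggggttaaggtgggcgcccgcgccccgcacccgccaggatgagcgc
Lsamp: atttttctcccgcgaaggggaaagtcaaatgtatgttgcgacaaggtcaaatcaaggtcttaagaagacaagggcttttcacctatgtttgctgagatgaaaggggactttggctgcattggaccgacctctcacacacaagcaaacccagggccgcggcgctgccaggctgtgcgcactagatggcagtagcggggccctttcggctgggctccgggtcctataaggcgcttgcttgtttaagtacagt
Iglon5: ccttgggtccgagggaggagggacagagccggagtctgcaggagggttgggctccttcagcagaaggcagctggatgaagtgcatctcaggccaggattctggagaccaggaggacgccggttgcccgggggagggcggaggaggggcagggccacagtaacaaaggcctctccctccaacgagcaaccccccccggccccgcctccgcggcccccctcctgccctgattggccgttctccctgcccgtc
The motif occurred in 2 of the 9 windows listed for the 7 genes, beginning 20 bases before the start of Mdga2 and 249 bases before this start of Ntm. It occurred in 11.4% of all 32851 windows of this length. For Ntm the window with the match is shown, and its first listed window, not shown, had none. No match was found in the windows of Mdga1, Lsamp, Iglon5, Negr1 and Opcml either. This says only that these letters are not in those 250 bases. Mdga1 had the most GC-rich window of the family, with 70.4% G or C and 21 CpG dinucleotides, against a median of 52.4% G or C over all windows.

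Mdga1 had the largest difference of the 7 genes. Its control values were 9.66, 9.33, 9.20 and 9.14 in replicates 1 to 4, and its mutant values were 8.26, 8.41, 8.27 and 8.12. The lowest control thus stood 0.73 above the highest mutant. The mean fell from 9.33 ± 0.23 to 8.26 ± 0.12 (SD, n = 4), a log2 difference of -1.07 (SE 0.11, limma adjusted p = 6.04e-05), and the 95% interval of the fold ran from 1.79 to 2.45. Of all genes, 62 (0.311%) had a larger absolute difference. With each array left out in turn the difference of Mdga1 ranged from -1.13 to -0.96, and its call was kept each time.

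The values of Mdga2, the paralog of Mdga1 that also binds neuroligins, fell by less. The controls read 8.25, 8.36, 8.45 and 8.10 and the mutants 8.06, 7.90, 7.99 and 7.67. The groups were separated by only 0.03, between control 4 and mutant 1. The log2 difference was -0.38 (SE 0.10, limma adjusted p = 0.0417). A second, dimmer probe set of Mdga2 read 8.10, 8.03, 8.09 and 7.97 in the controls and 7.79, 7.39, 7.53 and 7.5 in the mutants. This probe set too was lower in every mutant, with a difference of -0.50 (SE 0.08, limma adjusted p = 0.00336 among all probe sets). The call of the brighter probe set did not hold when control 1, 2 or 3 or mutant 2, 3 or 4 was left out (limma adjusted p 0.0557 to 0.126) and with inferred sex as a covariate (0.09), while the mean of both probe sets gave -0.44 (adjusted p = 0.00761).

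Ntm, which encodes neurotrimin, was the IgLON gene with the largest difference. Its control values were 11.51, 11.25, 11.28 and 11.18, and its mutant values were 10.95, 10.57, 10.69 and 10.56. All mutants lay below all controls, with mutant 1 the closest at a gap of 0.24. The mean fell from 11.30 ± 0.14 to 10.69 ± 0.18 (SD, n = 4), a log2 difference of -0.61 (SE 0.10, limma adjusted p = 0.00193). The difference of Ntm stayed between -0.70 and -0.54 with each array left out.

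Opcml, the opioid-binding IgLON whose gene neighbours Ntm, with no other protein-coding gene between them in the RefSeq gene table, did not pass the test. In the controls Opcml read 10.89, 10.57, 10.73 and 10.63, and in the mutants it read 10.73, 10.50, 10.42 and 10.26. Mutant 1 lay within the control range, and the other mutants lay below it. The log2 difference of Opcml was -0.23 (SE 0.10, limma adjusted p = 0.322), with a 95% interval from -0.44 to -0.01. With each array left out the difference of Opcml ranged from -0.31 to -0.15, the latter without mutant 4 (adjusted p = 0.606).

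Lsamp, the limbic system-associated membrane protein, rose. In replicates 1 to 4 the controls read 8.60, 8.90, 8.87 and 8.78 and the mutants 9.34, 9.18, 9.34 and 9.10. Every mutant exceeded the highest control, by 0.20 at the least. The mean rose from 8.79 ± 0.14 to 9.24 ± 0.12 (SD, n = 4), a log2 difference of 0.45 (SE 0.08, limma adjusted p = 0.00653). The rise of Lsamp was between 0.39 and 0.50 with each array left out, and its call was kept each time.

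Negr1, also called Kilon, is a neuronal growth regulator whose locus has been linked to body weight. Its control values were 8.74, 9.57, 9.82 and 9.85, and its mutant values were 9.82, 10, 10.04 and 10.02. Control 1 stood 1.0 below the mean of the other controls, and mutant 1 overlapped controls 3 and 4. The log2 difference of 0.47 (SE 0.19) was as large as that of Lsamp but did not pass the test (limma adjusted p = 0.252), with a 95% interval from 0.07 to 0.88. Without control 1 the difference of Negr1 was 0.22 (adjusted p = 0.23). In the same array Ldb2, a cofactor gene of deep-layer neurons, read 8.29 against 9.58 to 9.74 in the other controls. The part of this in the value of Negr1 was not tested.

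Iglon5, the autoantigen of a neurological disease with sleep disturbance, rose by the smallest amount among the called members. The control arrays read 7.29, 7.46, 7.34 and 7.36 and the mutant arrays 7.55, 7.70, 7.67 and 7.59. The groups were 0.09 apart, with control 2 and mutant 1 nearest to each other. The log2 difference was 0.27 (SE 0.07, limma adjusted p = 0.0377). This call was lost after quantile normalization (0.0646), after subtraction of array medians (0.0943), with inferred sex as a covariate (0.0768), and when control 1, 3 or 4 or mutant 2, 3 or 4 was left out (0.0689 to 0.124).

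The exact two-sided permutation p over the 70 ways to choose 4 of 8 arrays was 0.0286 for each of the 5 called members, the smallest this design can give, 0.0571 for Negr1 and 0.114 for Opcml. Under unmoderated variances, estimated gene by gene, Mdga1 kept its call (adjusted p = 0.0296), and Lsamp, Ntm, Iglon5 and Mdga2 lost it (0.0969, 0.0793, 0.0814 and 0.237).

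**Figure D2:**
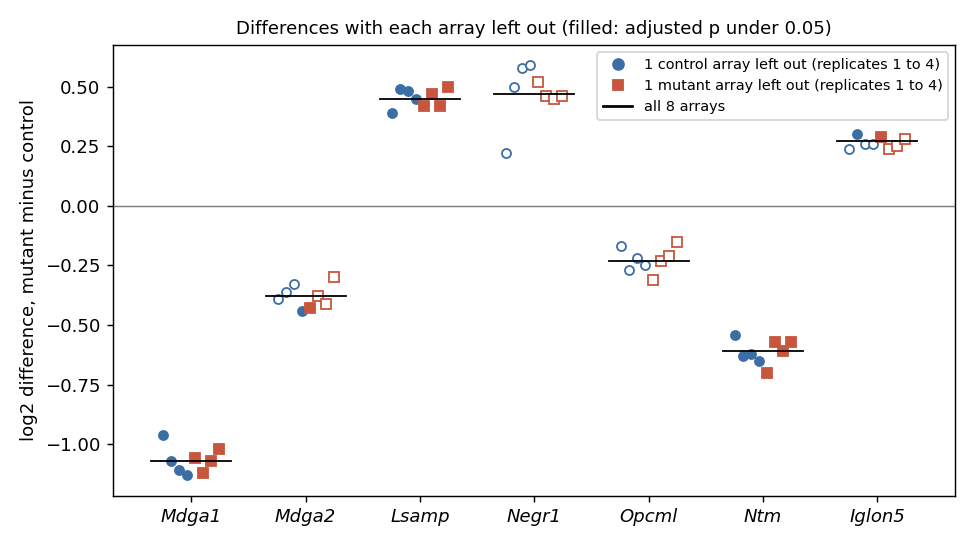
Log2 difference between mutant and control (vertical axis) of each gene with all 8 arrays (black line) and with each array left out (circles for controls, squares for mutants, filled where the adjusted p is under 0.05). Every point keeps the sign of the line, and for Negr1 the lowest point, 0.22, is the one without control 1.

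Whether close members changed by different amounts was tested on the log2 difference of both genes within each array, for 3 pairs. The values of Mdga1 fell by more than those of Mdga2. Their within-array difference lay between 0.75 and 1.41 in the controls and between 0.19 and 0.51 in the mutants, a shift of -0.69 (SE 0.15, exact two-sided permutation p = 0.0286, 0.0429 adjusted over the 3 pairs). Without mutant 1 or mutant 3 this exact p was 0.0571. The 2 probe sets of Mdga2 themselves gave -0.38 and -0.50, and the part of probe response in the shifts of the 3 pairs was not tested. The values of Ntm and Opcml shifted by different amounts: the difference of Opcml minus Ntm was -0.68 to -0.54 in the controls and -0.30 to -0.07 in the mutants, a shift of 0.39 (SE 0.06, exact permutation p = 0.0286, adjusted 0.0429). The changes of Lsamp and Negr1 were not told apart, with a shift of -0.02 (SE 0.23, exact permutation p = 0.914, adjusted 0.914) that was 0.16 without control 1.

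**Figure D3:**
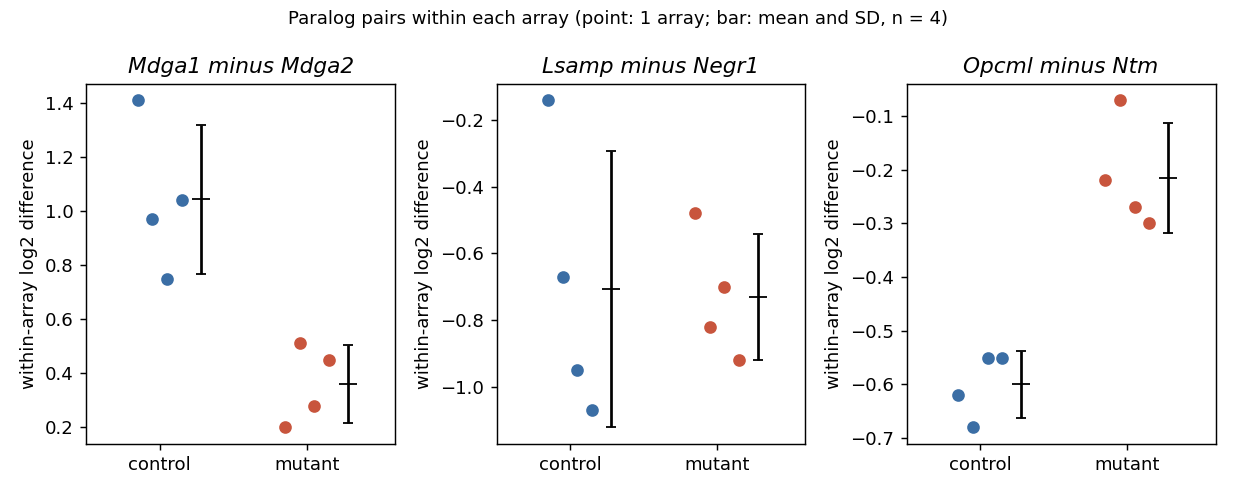
Within-array log2 difference (vertical axis) of 3 pairs of related genes in control and mutant arrays, with the mean and SD of each group. The groups separate for Mdga1 minus Mdga2 and for Opcml minus Ntm, and overlap for Lsamp minus Negr1, where control 1 is the highest point at -0.14; only the shift between groups is read, since levels of different probe sets are not comparable.

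The genes of neuroligins, which MDGA proteins bind, and of neurexins had smaller differences than Mdga1 and did not pass the test. Of 5 neuroligin and neurexin genes measured, 0 of 5 rose or fell by limma and 1 had an unadjusted p under 0.05, as 14% of all genes had, with log2 differences from -0.31 to 0.14 and a median of 0.07. The largest was that of the neurexin gene Nrxn3, whose mean was 8.43 ± 0.16 in the controls and 8.12 ± 0.09 in the mutants (SD, n = 4, limma adjusted p = 0.0638). Nrxn3 lay close to the threshold, and control 1, at 8.19, read nearest to the mutants. Without control 1 its difference was -0.39 (limma adjusted p = 0.00546), and it also passed after quantile normalization (0.0472), after median subtraction (0.0461), without the dimmest 50% of genes (0.0421), with array weights (0.0167) and with an intensity trend and robust variances (0.0421). The neuroligin genes Nlgn1, Nlgn2 and Nlgn3 had differences of 0.07, -0.05 and 0.14. Their 95% intervals ran from -0.12 to 0.26, from -0.22 to 0.11 and from -0.05 to 0.33. Of 3 genes taken as partners of Negr1, Fgfr2, Ncam1 and Npc2, 0 of 3 passed, adjusted or unadjusted, and the differences lay between -0.01 and 0.10.

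All 7 members depend on the enzymes that make and attach the GPI anchor. Of 16 measured genes of anchor synthesis, 0 of 16 passed by limma (1 at an unadjusted p under 0.05, against 14% of all genes), with differences from -0.17 to 0.20, the latter that of the mannosyltransferase gene Pigv (limma adjusted p = 0.399). Of 9 genes of the transamidase, which joins the anchor to the protein, and of later remodelling, Pgap1 rose and 8 did not pass. The same test called 4.15% of all genes, with 2.36% higher and 1.79% lower. Pgap1 encodes the deacylase that removes a fatty acid from the anchor, and it went from 8.43 ± 0.14 to 8.75 ± 0.06 (SD, n = 4, log2 difference 0.32, adjusted p = 0.0356). With the mean of its probe sets the value of Pgap1 was 0.16 (limma adjusted p = 0.54). The call of Pgap1 did not hold when control 1 or 2 or mutant 2, 3 or 4 was left out (0.0761 to 0.116). It was also lost after median subtraction (0.0696), with inferred sex as a covariate (0.0671) and without moderation of variances (0.162). Of 6 genes of proteases and phospholipases that release such proteins from the membrane, or inhibit this, 0 of 6 passed by limma (3 at an unadjusted p under 0.05, against 14% of all genes), with differences from -0.19 to 0.22. The largest was that of the phosphodiesterase gene Gdpd2 (limma adjusted p = 0.309).

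The contactins are another GPI-anchored immunoglobulin family of neurons, and like the IgLON genes they changed in both directions. Of 6 contactin genes, Cntn6 (-1.26), Cntn3 (-0.83) and Cntn4 (-0.40) fell, Cntn5 (0.87) rose and 2 did not pass (limma adjusted p at most 0.00394 for those called). Over all genes the same test called 4.15%, with 2.36% higher and 1.79% lower. Without moderation of variances Cntn6 (adjusted p = 0.084) and Cntn3 (0.0705) did not pass. These calls were made on the same arrays as those of the 7 genes, and no test between the families was made.

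**Figure D4:**
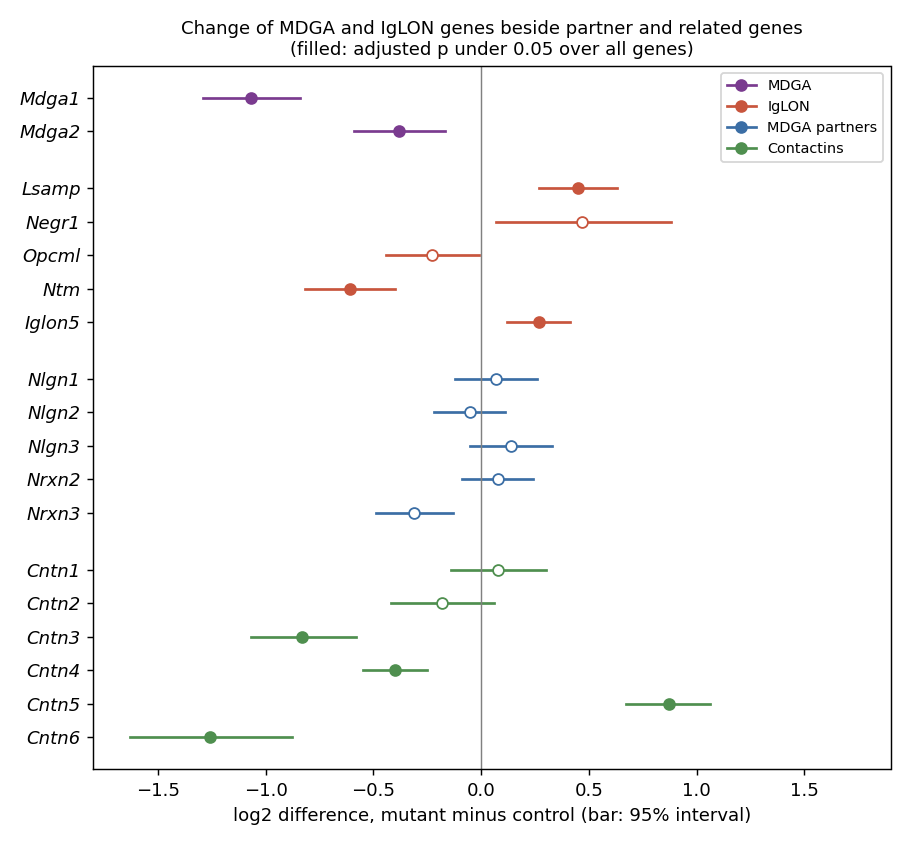
Log2 difference between mutant and control (horizontal axis) with its 95% interval for the MDGA and IgLON genes, the neuroligin and neurexin genes and the contactins, filled where the adjusted p over all genes is under 0.05. The neuroligin and neurexin genes (labelled MDGA partners) lie between -0.31 and 0.14. The MDGA and IgLON genes run from -1.07 to 0.47 and the contactins from -1.26 to 0.87.

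Markers of cell types were read in the same arrays, and in such tissue fewer cells of a type and less RNA per cell cannot be told apart. The test called 2.36% of all genes higher and 1.79% lower. Of 9 markers of upper-layer neurons, 4 fell and 0 rose, namely Cux2 (-1.29), Pou3f2 (-0.38), Cux1 (-0.35) and Pou3f3 (-0.35, a call that did not hold when control 2 or 3 or mutant 1, 3 or 4 was left out, adjusted p 0.0584 to 0.0935, or with inferred sex as a covariate, 0.0668). The mean level of the 9 markers was 9.26 to 9.42 in the controls and 9.04 to 9.23 in the mutants. Unc5d, a netrin receptor gene of the same list named here after its values were seen, read higher in all mutants than in any control (0.46, limma adjusted p = 0.0659). Of 10 deep-layer markers, Ldb2 rose (1.38) and Ntsr1 fell (-0.90). The mean level of the 10 was 7.03 to 7.32 in the controls and 7.40 to 7.45 in the mutants. Of 10 interneuron markers, Npy (-1.63) and Dlx1 (-0.46) fell, with a mean level of 7.20 to 7.30 in the controls and 6.85 to 6.94 in the mutants. Among 5 subplate genes Nr4a2 fell (-2.15), and the mean level was 5.0 to 5.32 against 4.60 to 4.72. With an intensity trend and robust variances Ldb2 (adjusted p = 0.116) and Nr4a2 (0.0705) lost their calls. Without moderation of variances Ldb2 (0.185), Nr4a2 (0.137), Npy (0.0989), Pou3f2 (0.103), Cux1 (0.0676) and Pou3f3 (0.176) did not pass. The part of these cell types in the changes of the 7 genes was not tested.

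The remaining markers did not pass. These were 9 of astrocytes and radial glia (mean level 7.48 to 7.76 in controls and 7.42 to 7.64 in mutants), 7 of the oligodendrocyte lineage (6.04 to 6.24 and 6.02 to 6.11), 8 of vessels (6.51 to 6.65 and 6.36 to 6.52), 6 of meninges (5.0 to 5.31 and 4.79 to 5.14) and 6 of striatal neurons (5.40 to 5.54 and 5.41 to 5.53). The 8 microglial markers had a mean level of 4.31 to 4.37 in the controls and 4.25 to 4.37 in the mutants, and 5 of the 8 had a mean at or below the value that may be background. Their largest differences were those of Gfap (-0.32, limma adjusted p = 0.0624), Pdgfra (-0.28, 0.156), C1qa (-0.22, 0.198), Kdr (-0.27, 0.0822), Dcn (-0.39, 0.526) and Foxp1 (-0.18, 0.436). Gfap, an astrocyte gene, passed without control 1 (adjusted p = 0.0156) or mutant 4 (0.0291), after median subtraction (0.0396), with array weights (0.0223) and with inferred sex as a covariate (0.0279), and Kdr, an endothelial gene, passed after quantile normalization (0.0415) and median subtraction (0.0482).

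The genes whose pattern over the 8 arrays was most like that of each changed member were found by the root mean square distance between array values, each gene centred on its own mean. Genes with provisional symbols (Gm or LOC with a number, Rik, or capital letters with a number) were left out. The distance rests largely on the shift between the genotypes. Mdga1 was nearest to Gucy1a1, a subunit of soluble guanylate cyclase, at a distance of 0.095, then to the semaphorin gene Sema7a (0.129) and Fam189a2 (0.135). Gucy1a1 read 8.57 to 8.80 in the mutants and 9.38 to 9.92 in the controls, with control 1 highest in both genes. Mdga2 was nearest to Spire1 (0.032), which encodes an actin nucleator, then to Kdr (0.078), a vascular growth factor receptor, and Vim (0.084), the intermediate filament vimentin. Ntm was nearest to Carmil1 (0.065), Gjc1 (0.067) and Arhgap29 (0.068). Lsamp was nearest to Zfp827 (0.061), Lcorl (0.066) and Nadk2 (0.073), and Iglon5 to Znrd1 (0.037), Zbed3 (0.038) and Nmral1 (0.040).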

How the data were processed

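Total RNA of 8 pups was measured on 1 array each. Per the labels, the submitters used BRB-ArrayTools. How background was corrected, arrays normalized and probes summarised, and the log base, is not stated in the sources used. The authors' deposited values, 2.03 to 13.85, were taken as log2 expression normalized by the authors, and with another base the fold changes would differ. Of 35556 probe sets, 21789 had 1 gene symbol, 1621 several and 12146 none in the platform annotation. Probe sets with 1 symbol gave 19938 genes, the brightest standing for each of the 999 genes with several, and no filter on dim genes was applied. Genes without such a probe set were not analysed here.

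Genotypes were compared with limma 3.58.1 (R 4.3.3), genotype as the sole term, moderated variances (6.91 prior degrees of freedom), two-sided, over all genes. The median SE was 0.0766, and the number of arrays limits precision. The procedure was tested on simulated data. The 7 members and all lists were chosen with earlier results of these data known. By rule, all members and Bcl11a were named, with up to 4 past the threshold from each list (otherwise the largest difference), and 3 genes nearest in pattern to each changed member. The same-numbered arrays were not taken as pairs, since the labels name no pairing. Their deviations from the group means correlated at 0.109, 0.0558, 0.295 and 0.149, all positive. Whether arrays of the same number share structure was not tested. A replicate block, fitted as an alternative, gave 565 genes higher and 422 lower, against 470 and 357 without it. Alternatives covered normalization, dim genes, probe sets, array weights, variances, thresholds, a block, inferred sex and each array left out. Promoter windows came from the RefSeq table, whose entries may not be complete.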

Additional observations from a re-analysis of the deposited data

Results flagged for a closer look

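In 5 of 92 groups of 4 arrays checked, over 46 named genes, the highest or lowest array lay far from the others for the group's range, and chance alone gives about 1 in 20. None was a value of the 7 MDGA and IgLON genes. Control 1 was the lowest of the controls for Ldb2 (8.29, the next at 9.58), for Nrxn3 (8.19, the next at 8.49) and for Lcorl (7.15, the next at 7.34). Control 3 was the highest control for Cux1 (9.73, the next at 9.66), and mutant 2 the highest mutant for Gucy1a1 (8.80, the next at 8.61).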

How the results depend on the processing

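Over 21 alternatives the log2 differences of all 7 members kept their sign. Mdga1 kept its call in all 21 (-1.13 to -0.96), Lsamp and Ntm in 20 each, Iglon5 in 10 and Mdga2 in 12, and Negr1 and Opcml passed in none. The count of members higher in the mutant was 2, and it was 1 after quantile normalization, after median subtraction, at an adjusted p under 0.01 and with inferred sex as a covariate, and 0 without moderation of variances. It was 1 or 2 with each array left out. The count of members lower was 3, and it was 2 at an adjusted p under 0.01 and with inferred sex as a covariate, 2 or 3 with each array left out, and 1 without moderation. Over all genes 470 were higher and 357 lower, against 123 and 126 without moderation and 243 and 204 at an adjusted p under 0.01. With a replicate block 565 genes were higher and 422 lower, no member changed its call, and Nrxn3 (adjusted p = 0.0444), Gfap (0.0408) and, by a margin lost in rounding, Kdr (0.05) passed. With each array left out, the shift of Mdga1 minus Mdga2 ranged from -0.78 to -0.57, that of Opcml minus Ntm from 0.34 to 0.41, and that of Lsamp minus Negr1 from -0.14 to 0.16, being 0.16 without control 1, 0.01 without mutant 2 and 0.04 without mutant 4. The causes were not tested. All 7 genes lay above the value that may be background in every array.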

Other observations

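For 6 of the 7 genes, control 1 lay on the side of the other controls that faces away from the mutants. It was higher than the mean of the other controls for Mdga1 (by 0.43), Ntm (0.27) and Opcml (0.24), which had negative differences, and its value minus that mean was -1.0 for Negr1, -0.25 for Lsamp and -0.10 for Iglon5, which had positive ones. For Mdga2 it was -0.05. The same position of control 1 held for 67.8% of the 827 genes past the threshold and for 39.6% of all genes. The direction of the mutants was taken from the other 7 arrays. The 827 genes were called with control 1 included, which favours this position among them. Position and direction were both measured from the mean of the other controls, which by itself lowers such shares. The shares thus give no baseline for the 7 genes. Without control 1 the log2 differences were -0.96 for Mdga1, -0.54 for Ntm and 0.39 for Lsamp (limma adjusted p = 1.71e-05, 0.00348 and 0.0124).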
